A study of Homo sapiens with 12 samples.

Results

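The glucocorticoid receptor NR3C1 and 9 genes that it is known to induce (TSC22D3, FKBP5, PER1, KLF9, SGK1, ZBTB16, GLUL, CRISPLD2 and ERRFI1) were followed in HK-2, a human cell line immortalised from the epithelium of the kidney's proximal tubule. The members were the probe sets annotated to these 10 symbols. Probe sets with 1 symbol existed for 9 of the 10 genes (25 probe sets of 41091), while PER1 lay only on probe sets shared with the microRNA gene MIR6883 and is described apart. Of the 9 genes, 7 were bright enough to test, among 10907 tested genes in all.

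Cells were exposed to a low dose of the agent labelled Nnm, of which the labels give no concentration, or to vehicle. The groups were Nnm 24 h, control 24 h, Nnm 48 h and control 48 h, each with 3 arrays labelled as biological replicates, and these 12 arrays limit the precision. All 4 groups were grown in DMEM and Ham's F12 medium that held 36 ng/ml hydrocortisone, a ligand of the receptor, with 10 ng/ml EGF, 5 µg/ml insulin, transferrin, selenite and 5 mM glucose, and were seeded 24 h before exposure. Nnm was 1 of several agents surveyed for signatures of toxicity, so the question here is how receptor and target transcripts differ between exposed and vehicle cells that both receive ligand. HK-2 is a single immortalised line, and each array is a bulk sample in which fewer cells of a type and less RNA per cell cannot be told apart.

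The receptor waits in the cytoplasm in a complex with HSP90 and its cochaperones. Binding of cortisol sends it to the nucleus, where it binds paired AGAACA-like elements and raises transcription of its targets, and where it also lowers transcription driven by NF-kB and AP-1. Several targets feed back on the pathway. FKBP5 is a cochaperone that lowers the receptor's affinity for hormone, and TSC22D3 (also called GILZ) is a leucine zipper protein that binds and restrains NF-kB. In kidney epithelium SGK1, a kinase, raises the activity of the epithelial sodium channel.

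Expression values are log2 units, so that a difference of 1 is a doubling of signal, and "rose" or "fell" is used only where limma's p, after Benjamini-Hochberg adjustment across the 10907 genes, was under 0.05. On the first principal component (50.3% of the variance) the Nnm arrays of replicate 2 stood at -1.55 (24 h) and -3.28 (48 h), between the other Nnm arrays (-43.2 to -31.2) and the control arrays (18.6 to 34.4). The 5′ signal of ACTB minus its 3′ signal, a measure of RNA quality, was -1.17 to -1.09 for replicate 2 in every group and -0.86 to -0.74 for the rest. The same difference for GAPDH did not set replicate 2 apart (0.062 to 0.158, against 0.029 to 0.162 for the rest). Of 15 proximal tubule markers 12 were on probe sets of their own, and of these PAX8 (10.58 to 11.74) and CDH6 (12.16 to 14.00) were above background. The defining transporters and receptors of that cell type, among them LRP2, CUBN, AQP1 and SLC34A1, lay at 2.09 to 3.00. All 6 epithelial markers were above background. Of 6 fibroblast markers DCN, LUM and COL1A1 were too, with COL1A2, COL3A1 and PDGFRB at 2.77 to 3.13, and all 4 leukocyte markers with probe sets of their own lay at 3.05 or below. The summed log2 level of the fibroblast list was 38.65 to 39.95 on Nnm 24 h arrays and 39.18 to 40.24 on control 24 h arrays, and 38.25 to 38.74 on Nnm 48 h arrays and 38.24 to 38.88 on control 48 h arrays. That of the proximal tubule list was 49.65 to 50.68 on Nnm 24 h arrays and 49.44 to 49.57 on control 24 h arrays, and 50.68 to 52.68 on Nnm 48 h arrays and 49.25 to 49.64 on control 48 h arrays, so it stood apart at both times. Of its genes PAX8 rose at 24 h (0.65, adjusted p = 0.0398) and CDH6 at 48 h (1.38, adjusted p = 0.0141). The distal nephron list, which holds SCNN1A, summed to 26.60 to 26.74 on Nnm 24 h arrays and 25.82 to 26.05 on control 24 h arrays, and to 26.58 to 27.26 on Nnm 48 h arrays and 26.10 to 26.60 on control 48 h arrays. The epithelial list summed to 62.32 to 65.26 on Nnm 24 h arrays and 64.15 to 66.49 on control 24 h arrays, and 61.72 to 64.12 on Nnm 48 h arrays and 62.88 to 66.06 on control 48 h arrays. When replicate number was fitted as a block, 3 of its 6 genes fell at 24 h and 1 at 48 h. That fit called 18.8% of all tested genes lower at 24 h and 13.7% at 48 h. The sums of the endothelial and leukocyte lists overlapped at both times. The part of these markers in the results was not tested.

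After 24 h with Nnm, the receptor and 3 of its targets rose. TSC22D3 had the largest change of the 7 tested members, followed by GLUL, NR3C1 and FKBP5. SGK1, ERRFI1 and CRISPLD2 did not pass. The 4 members that passed were all higher, 4 of 7, where 10.6% of all tested genes were called higher in the same comparison. In the same 4 members the 3 Nnm 24 h arrays lay above the 3 control 24 h arrays, which held for 21.1% of all tested genes. At an unadjusted p under 0.05 the counts were the same, 4 higher and 0 lower, against 19.0% higher and 17.5% lower among all tested genes. The median change of the 7 members was 0.68, against 0.01 over all tested genes.

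**Figure D1:**
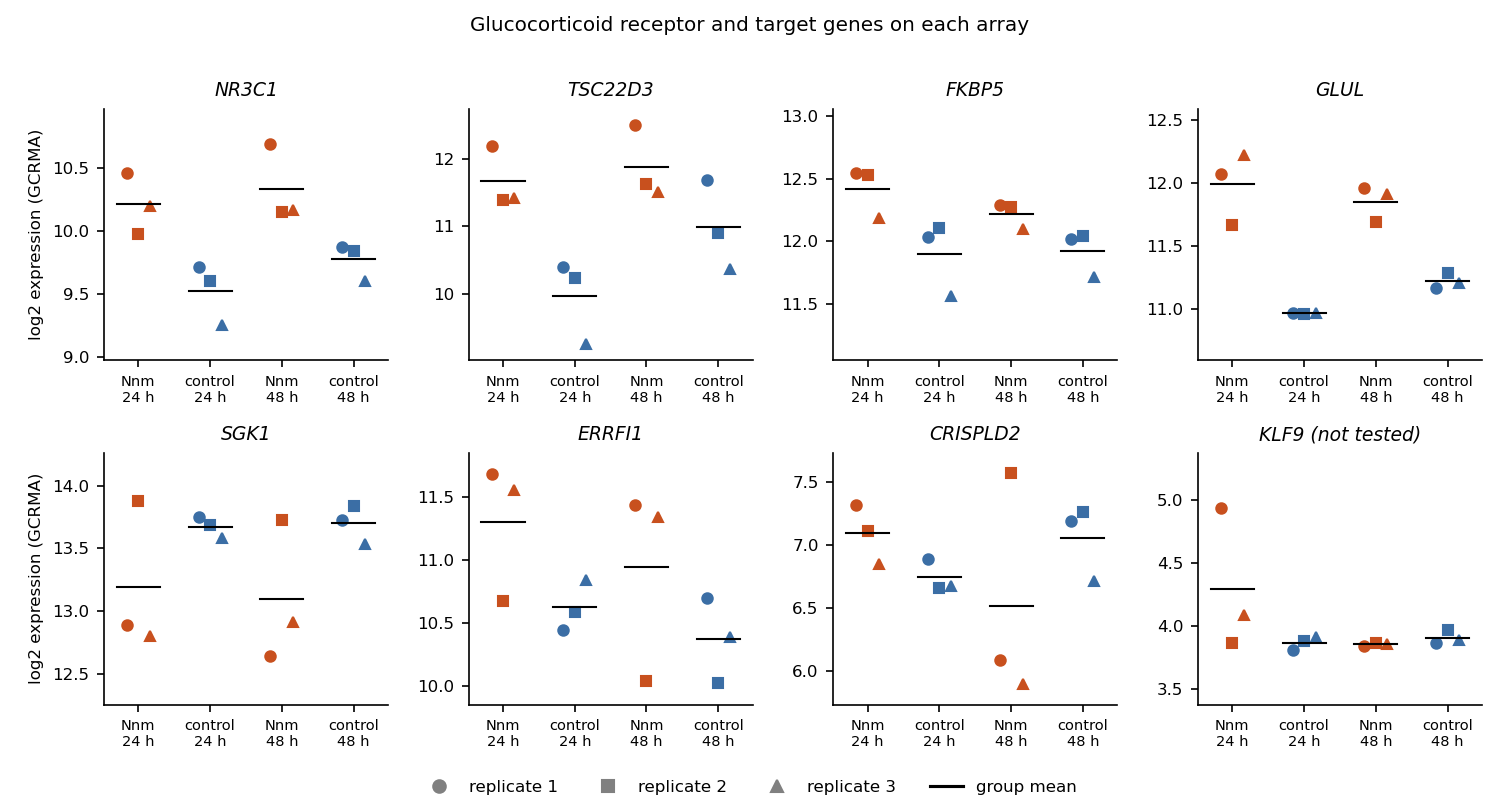
Log2 expression (vertical axis, GCRMA) of 8 members on each array. Columns are Nnm 24 h, control 24 h, Nnm 48 h and control 48 h, points are arrays with their shape giving the replicate number, and lines are group means. The Nnm points of NR3C1, FKBP5 and GLUL lie above the control points of the same time, while the Nnm squares (replicate 2) of SGK1 and ERRFI1 lie within the control range, apart from SGK1 at 24 h, where the square lies above it at 13.88. KLF9 was above 4 on 2 arrays only.

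The receptor itself was measured by 5 probe sets, all of them bright enough to keep. On the brightest, NR3C1 had 10.46, 9.98 and 10.20 on the Nnm 24 h arrays (replicates 1, 2 and 3), against 9.72, 9.61 and 9.26 on the control 24 h arrays. Every Nnm array lay above every control array, with replicate 2 the lowest of the Nnm arrays. NR3C1 rose by 0.69 (SE 0.19, adjusted p = 0.0293), which is 1.61-fold. The change fell short of the threshold without Nnm 24 h replicate 1 (0.56, adjusted p = 0.108), Nnm 24 h replicate 3 (adjusted p = 0.0846), control 24 h replicate 2 (adjusted p = 0.0501) or control 24 h replicate 3 (0.55, adjusted p = 0.117).

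At 48 h the same probe set of NR3C1 had 10.69, 10.15 and 10.17 on Nnm arrays, against 9.87, 9.85 and 9.61 on control arrays. The groups again did not overlap, with the Nnm array of replicate 1 the highest. The change was 0.56 (SE 0.19) and missed the threshold (adjusted p = 0.0668, 95% interval 0.15 to 0.97), but passed with the replicate number as a block (adjusted p = 0.0119). It also passed without Nnm 48 h replicate 2 (0.65, adjusted p = 0.0474).

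The other probe sets of NR3C1 differed in size. When every kept probe set was fitted on its own, probe set 216321_s_at (0.69, adjusted p = 0.0364) and probe set 211671_s_at (0.60, adjusted p = 0.0475) rose at 24 h. The changes of 201865_x_at (0.52, adjusted p = 0.0683) and 201866_s_at (0.49, adjusted p = 0.0551) at 24 h did not pass. At 48 h none of the 5 passed, and the bright ones gave 0.56 (216321_s_at, adjusted p = 0.079), 0.51 (211671_s_at, adjusted p = 0.0897), 0.48 (201865_x_at, adjusted p = 0.0987) and 0.18 (201866_s_at, SE 0.15, adjusted p = 0.478), with overlapping groups in the last. On 211671_s_at the Nnm 24 h arrays had 9.77, 9.43 and 9.35, against 9.03, 9.13 and 8.58 on the control 24 h arrays, so that the groups did not overlap there either. The dim probe set 232431_at (3.77 to 5.68) changed by -0.10 at 24 h (SE 0.49, adjusted p = 0.908) and 0.44 at 48 h (SE 0.49, adjusted p = 0.593), and its groups overlapped. With the mean of the 5 probe sets in place of the brightest, the change of NR3C1 at 24 h was 0.44 (adjusted p = 0.104).

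TSC22D3 is among the most direct and best known targets of the receptor. Its brightest probe set had 12.19, 11.39 and 11.43 on the Nnm 24 h arrays, against 10.40, 10.25 and 9.27 on the control 24 h arrays. All Nnm arrays were above all control arrays, and control 24 h replicate 3 was the lowest of the 6 by a wide margin. TSC22D3 rose by 1.70 (SE 0.41, adjusted p = 0.0205), or 3.24-fold, the largest change of the 7 members. Without control 24 h replicate 3 the change was 1.34 (adjusted p = 0.0869), and without Nnm 24 h replicate 1 or replicate 3 the adjusted p was 0.078 and 0.0567.

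At 48 h TSC22D3 had 12.49, 11.62 and 11.51 on the Nnm arrays, against 11.69, 10.90 and 10.38 on the control arrays. The groups overlapped, because control 48 h replicate 1 exceeded Nnm 48 h replicates 2 and 3. The change was 0.89 (SE 0.41, adjusted p = 0.163, 95% interval -0.02 to 1.79). Within each replicate number Nnm exceeded control by 0.81, 0.72 and 1.13, and with that number as a block the gene passed (adjusted p = 0.00872). The second kept probe set, 207001_x_at, rose by 1.36 at 24 h (SE 0.31, adjusted p = 0.0204) and gave 0.77 at 48 h (SE 0.31, adjusted p = 0.128).

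FKBP5 had 12.54, 12.53 and 12.19 on Nnm 24 h arrays, against 12.04, 12.11 and 11.57 on control 24 h arrays. The arrays of replicate 3 were the lowest in both groups, and the groups did not overlap. FKBP5 rose by 0.52 (SE 0.16), with an adjusted p of 0.0494 just under the threshold, and it lost its call on leaving out any 1 of 11 of the 12 arrays. The adjusted p was highest without control 24 h replicate 3 (change 0.35, adjusted p = 0.175).

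At 48 h FKBP5 had 12.29, 12.28 and 12.10 on Nnm arrays, against 12.02, 12.05 and 11.72 on control arrays. Here too every Nnm array was above every control array. The change of 0.29 (SE 0.16) did not pass (adjusted p = 0.245), but did with the replicate block (adjusted p = 0.0309). The other FKBP5 probe sets gave 0.55 (204560_at, adjusted p = 0.0278) and 0.42 (224856_at, adjusted p = 0.0862) at 24 h, and the brightest, 224840_at, had an adjusted p of 0.06 when all probe sets were fitted together.

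GLUL encodes glutamine synthetase, which joins ammonia to glutamate. It had 12.08, 11.67 and 12.23 on Nnm 24 h arrays, against 10.97, 10.96 and 10.97 on control 24 h arrays. The control arrays were almost identical, and even the lowest Nnm array, replicate 2, stood well above them. GLUL rose by 1.03 (SE 0.14, adjusted p = 0.00496), or 2.04-fold, and passed without any 1 of the 12 arrays (adjusted p up to 0.0306).

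At 48 h GLUL had 11.96, 11.69 and 11.91 on Nnm arrays, against 11.17, 11.29 and 11.20 on control arrays. The groups stayed apart. GLUL rose by 0.63 (SE 0.14, adjusted p = 0.018), and was the 1 member of 7 called at 48 h, where 8.45% of all tested genes were called higher. Its call was lost without Nnm 48 h replicate 1 (adjusted p = 0.0759) or replicate 3 (0.0651), and without control 48 h replicate 1 (0.0659) or replicate 3 (0.0608). The other kept probe sets rose as well at 24 h, by 1.16 (200648_s_at, adjusted p = 0.00937) and 1.10 (217202_s_at, adjusted p = 0.0123). At 48 h 200648_s_at rose by 0.78 (adjusted p = 0.0339), and 217202_s_at gave 0.71 (adjusted p = 0.0537).

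GLUL was the 1 member called in the same direction at both times, and the stretches upstream of its 2 annotated starts are shown for that reason. Both are the 250 bases before a start in RefSeq (GRCh38.p14, chromosome 1, minus strand), at chr1:182391791-182392040 and chr1:182391342-182391591, printed from position -250 to -1. Capitals mark GGGCGG or its reverse complement, the box bound by SP family factors, with 2 matches in each stretch.
GLUL upstream 1: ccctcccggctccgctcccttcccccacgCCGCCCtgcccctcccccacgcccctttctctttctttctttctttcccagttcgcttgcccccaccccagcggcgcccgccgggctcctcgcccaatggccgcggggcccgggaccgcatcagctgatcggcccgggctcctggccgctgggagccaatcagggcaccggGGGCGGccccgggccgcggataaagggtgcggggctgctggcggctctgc
GLUL upstream 2: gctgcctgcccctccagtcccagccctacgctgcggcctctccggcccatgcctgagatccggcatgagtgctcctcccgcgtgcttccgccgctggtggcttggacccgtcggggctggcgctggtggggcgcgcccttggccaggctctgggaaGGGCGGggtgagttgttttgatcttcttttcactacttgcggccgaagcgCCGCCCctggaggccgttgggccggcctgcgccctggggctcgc
The stretches were 74.8% and 71.2% G and C. RefSeq held 22 windows of 300 bases (250 before a start to 50 after it) for 9 of the 10 members, all but ZBTB16. Both strands were searched. The box was in 15 of these 22 windows, against 45.0% of all 35116 windows, from which no chromosome was left out. NR3C1 held 7 of the 22 and TSC22D3 4, and some windows of a gene overlap. The 22 are therefore not independent, and enrichment was not tested. The full receptor element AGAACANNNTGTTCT was in 0 of the 22 (0.00285% of all windows). A relaxed form, GNACA and TGTNC with 3 bases of any kind between them, was also in 0 (0.390% of all windows). The single arm AGAACA, which a full element contains, was in 2 windows, 1 of FKBP5 and 1 of SGK1, against 14.8% of all windows. These matches are shown with 10 bases on each side, the arm in capitals, since no other arm was found in the 22 windows. They lie on the minus strand of chromosome 6, at chr6:35728568-35728593 for FKBP5 (positions -10 to 16 around the start) and chr6:134177841-134177866 for SGK1 (positions -5 to 21).
FKBP5 arm: ccactaccccAGAACAaactcctacc
SGK1 arm: ggttcataacAGAACAgggatagccg
A match is a run of letters and no measured binding site, and windows of this length do not reach more distant elements.

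In SGK1 the replicates differed in direction at 24 h. It had 12.89, 13.88 and 12.80 on Nnm 24 h arrays, against 13.75, 13.68 and 13.58 on control 24 h arrays. Replicates 1 and 3 of Nnm lay below all controls, while replicate 2 lay above them, so the groups overlapped. The change was -0.48 (SE 0.31, adjusted p = 0.279, 95% interval -1.16 to 0.19).

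At 48 h SGK1 had 12.64, 13.73 and 12.91 on Nnm arrays, against 13.73, 13.84 and 13.54 on control arrays. Within each replicate number the difference was below 0 (-1.08, -0.11 and -0.62), smallest in size in replicate 2. Nnm replicate 2 fell among the controls and the other Nnm arrays lay below them. The change was -0.60 (SE 0.31, adjusted p = 0.199, 95% interval -1.28 to 0.07). Without both Nnm arrays of replicate 2, SGK1 fell by 0.82 at 24 h (adjusted p = 0.00178) and fell by 0.92 at 48 h (adjusted p = 0.00137), where 34.0% and 28.9% of all tested genes were called in either direction.

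ERRFI1 (also called MIG6) binds and inhibits the EGF receptor. It had 11.68, 10.67 and 11.56 on Nnm 24 h arrays, against 10.44, 10.59 and 10.85 on control 24 h arrays. Nnm replicate 2 lay inside the control range and the other Nnm arrays above it. The change was 0.68 (SE 0.37, adjusted p = 0.21, 95% interval -0.14 to 1.5).

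At 48 h ERRFI1 had 11.44, 10.04 and 11.35 on Nnm arrays, against 10.70, 10.02 and 10.39 on control arrays. Again replicate 2 of Nnm lay within the control range. The change was 0.57 (SE 0.37, adjusted p = 0.318). Without both Nnm arrays of replicate 2 ERRFI1 rose by 1.00 at 24 h (adjusted p = 0.00476) and 1.02 at 48 h (adjusted p = 0.00527). In that fit 34.0% and 28.9% of all tested genes were called in either direction.

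CRISPLD2 encodes a secreted protein that dampens inflammatory signalling. It had 7.32, 7.11 and 6.85 on Nnm 24 h arrays, against 6.89, 6.66 and 6.68 on control 24 h arrays. The groups overlapped and the change was 0.35 (SE 0.36, adjusted p = 0.516). At 48 h CRISPLD2 had 6.09, 7.57 and 5.90 on Nnm arrays, against 7.19, 7.27 and 6.71 on control arrays. Nnm replicate 2 was the highest of these 6 arrays and the other Nnm arrays were the lowest. The change was -0.54 (SE 0.36, adjusted p = 0.335). Without both Nnm arrays of replicate 2 CRISPLD2 fell by 1.06 at 48 h (adjusted p = 0.00495), where 28.9% of all tested genes were called in either direction.

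The replicate 2 arrays of Nnm thus moved the calls of SGK1, ERRFI1 and CRISPLD2. Without both of them NR3C1 also passed at 48 h (adjusted p = 0.034), and FKBP5 lost its call at 24 h (adjusted p = 0.0928). These Nnm arrays lay nearest to the controls, so calls gained without them follow in part from leaving them out and are no separate support. The position of replicate 2 on the first principal component and its ACTB and GAPDH differences are given above, and their part in these values was not tested. For NR3C1, TSC22D3, GLUL, FKBP5 and ERRFI1, each of the 6 differences between Nnm and control of the same number was above 0. In FKBP5 replicate 2 was close to the rest (0.42 at 24 h, beside 0.51 and 0.62 for replicates 1 and 3). In SGK1 it was 0.19, beside -0.86 and -0.78, and in ERRFI1 0.08, beside 1.24 and 0.72.

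**Figure D2:**
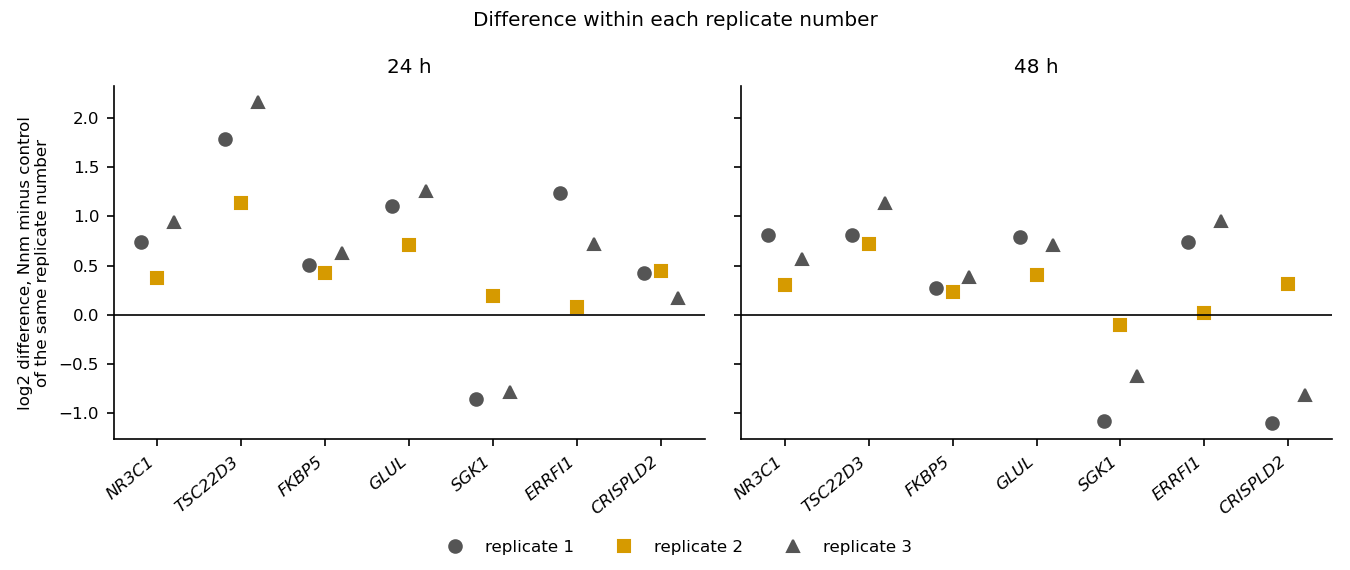
Log2 difference between the Nnm and control arrays of the same replicate number (vertical axis) for 7 members at 24 h (left) and 48 h (right). Each point is a single difference and yellow squares are replicate 2. NR3C1, TSC22D3, FKBP5 and GLUL lie above 0 throughout, and replicate 2 of SGK1 at 24 h lies at 0.19 while replicates 1 and 3 lie at -0.86 and -0.78.

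KLF9, a repressor of the Krüppel-like family, and ZBTB16 (also called PLZF), a zinc finger repressor, were not bright enough to test. The brightest of the 5 KLF9 probe sets had 4.94, 3.86 and 4.08 on Nnm 24 h arrays, against 3.81, 3.88 and 3.91 on control 24 h arrays, and 3.84 to 3.86 on Nnm 48 h arrays, against 3.86 to 3.96 on control 48 h arrays. Nnm 24 h replicates 1 and 3 were the only arrays above 4. In a fit with no filter KLF9 gave 0.43 at 24 h (SE 0.22, adjusted p = 0.334). ZBTB16 had 2.32 to 2.37 on all 12 arrays, which is background.

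Across all 16 kept member probe sets, 8 rose at 24 h and 0 fell, against 7.78% of all kept probe sets called higher. These were 3 of GLUL, 2 of TSC22D3, 2 of NR3C1 and 1 of FKBP5. At 48 h 2 rose, both of GLUL, against 6.26%. Probe sets of 1 gene share its RNA and are not independent.

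**Figure D3:**
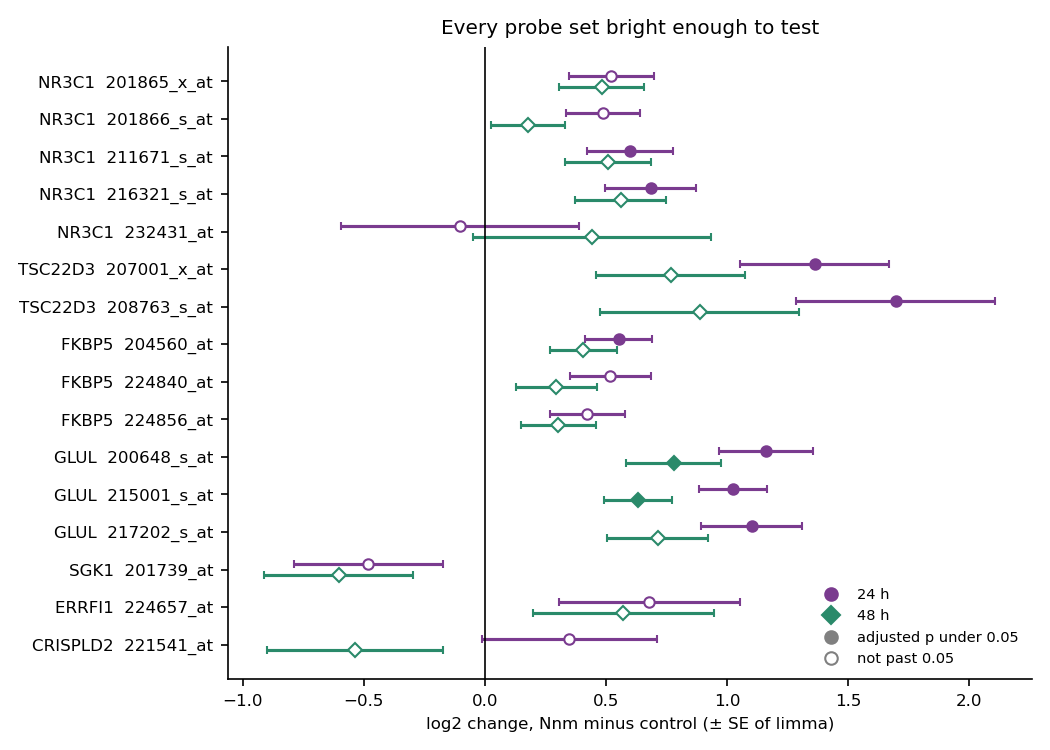
Log2 change, Nnm minus control (horizontal axis), of the 16 kept member probe sets, with bars for limma's SE. Circles are 24 h and diamonds 48 h, and filled symbols passed an adjusted p of 0.05 over all kept probe sets. The filled circles number 8 and the filled diamonds 2, and the dim NR3C1 probe set 232431_at has the widest bars.

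At 48 h the members thus gave 1 call of 7, with a median change of 0.56 against 0.02 over all tested genes. The Nnm arrays lay above the controls without overlap in NR3C1, FKBP5 and GLUL, 3 of 7, which held for 20.3% of all tested genes. The replicate numbers pair the arrays, and with that number as a block 4 of 7 rose at 48 h (NR3C1, TSC22D3, FKBP5 and GLUL), where the block also raised the share of all genes called higher to 18.5%. At 24 h the block called the same 4 members as before, against 20.0% of all genes. Without both Nnm arrays of replicate 2, 4 members rose and SGK1 fell at 24 h, while at 48 h GLUL, NR3C1 and ERRFI1 rose and SGK1 and CRISPLD2 fell. Leaving them out also raised the share of all tested genes called in either direction, to 34.0% at 24 h and 28.9% at 48 h. FKBP5 was not called at 24 h in that setting (0.46, adjusted p = 0.0928).

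**Figure D4:**
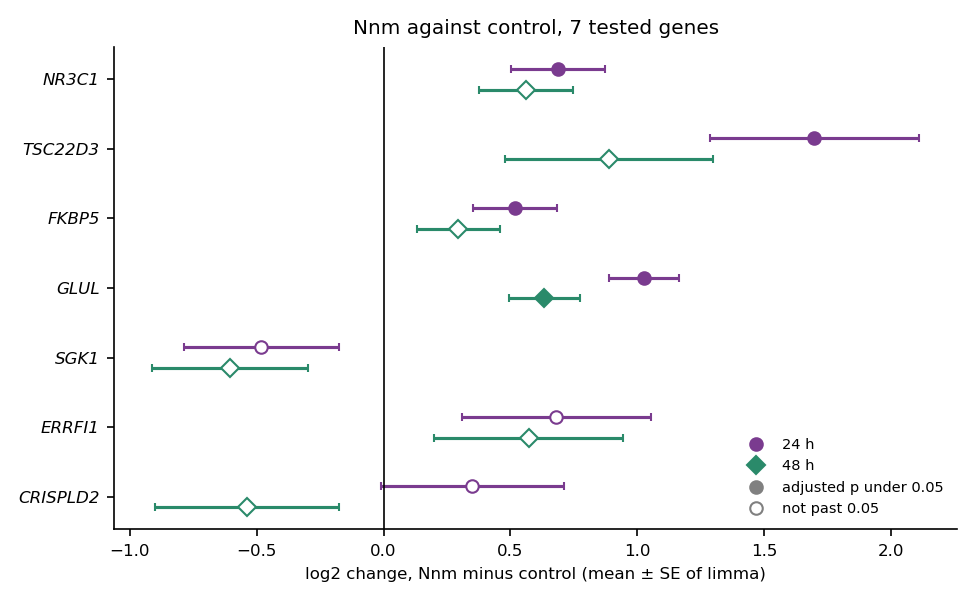
Log2 change, Nnm minus control (horizontal axis), of the 7 tested members with bars for limma's SE. Circles are 24 h and diamonds 48 h, filled where the adjusted p was under 0.05. At 24 h 4 genes are filled, and at 48 h GLUL alone. The 24 h and 48 h bars stand apart in GLUL and CRISPLD2 and overlap in the other genes.

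That 4 members passed at 24 h and 1 at 48 h does not show that the response differed between the times. The difference of the changes, 48 h minus 24 h, was tested directly and passed for none of the 7 members (adjusted p 0.801 to 0.986) and for 0 of all tested genes in limma's fit. At an unadjusted p under 0.05 it held for 0 members and 698 of 10907 genes (4.04% higher and 2.36% lower). It was -0.81 in TSC22D3 (SE 0.58, 95% interval -2.09 to 0.47), -0.39 in GLUL (SE 0.20, 95% interval -0.83 to 0.04) and -0.89 in CRISPLD2 (SE 0.51, 95% interval -2.01 to 0.24). In NR3C1, FKBP5, SGK1 and ERRFI1 it was -0.12, -0.22, -0.12 and -0.11.

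Culture time alone was compared in the controls. Over it, TSC22D3 averaged 10.99 ± 0.66 on control 48 h arrays and 9.97 ± 0.62 on control 24 h arrays (SD, n = 3 each). The difference was 1.02 (SE 0.41, adjusted p = 0.271), and it passed with the replicate block alone (adjusted p = 0.0148). No other member passed in that comparison in either fit, where 0.128% of all tested genes were called without the block and 8.47% with it. Between Nnm 48 h and Nnm 24 h none of the 7 passed (0.119% of all tested genes did). Nor did any at an unadjusted p under 0.05, where 5.60% of all tested genes were higher and 5.18% lower. TSC22D3 averaged 11.88 ± 0.54 on Nnm 48 h arrays and 11.67 ± 0.45 on Nnm 24 h arrays. In NR3C1 and TSC22D3 the order of the group means was Nnm 48 h, Nnm 24 h, control 48 h and control 24 h, highest first. In FKBP5 and GLUL it was Nnm 24 h, Nnm 48 h, control 48 h and control 24 h. Neighbours that differ only in time were not separated by the test without the block.

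Across the 12 arrays, which share groups and replicate numbers, NR3C1 and TSC22D3 had a Pearson correlation of 0.952, and NR3C1 and GLUL one of 0.866. SGK1 and ERRFI1 had a correlation of -0.89. The tested genes outside the members whose values were most like those of TSC22D3 were R3HDM2 (0.98), B4GAT1 (0.978), STOX1 (0.977), ARSL (0.973) and CD109 (0.973). Those most like NR3C1 were IL15 (0.992), FNDC3A (0.982), PPP1R9A (0.981), SKIL (0.979) and B4GAT1 (0.978). These figures describe the arrays and carry no test.

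Other genes of the pathway were taken from lists, which were counted and not tested as sets. Of 25 tested genes that glucocorticoids are known to induce elsewhere, 8 rose at 24 h and 0 fell, with a median of 0.27, against 10.6% called higher and 8.85% called lower among all tested genes. TFCP2L1, a transcription factor of the collecting duct, rose by 1.67 (SE 0.22, adjusted p = 0.00496), averaging 7.29 ± 0.18 on Nnm 24 h arrays and 5.62 ± 0.49 on control 24 h arrays (SD, n = 3 each), and the mean of its 3 probe sets rose by 1.06 (adjusted p = 0.00672). PDK4, a kinase that shuts off pyruvate dehydrogenase, rose by 1.18 (SE 0.21, adjusted p = 0.00859). BCL6, a transcriptional repressor, rose by 0.98 (SE 0.16, adjusted p = 0.00657), and RGS2, a brake on G protein signalling, by 0.70 (SE 0.12, adjusted p = 0.00752). All 4 passed without any 1 array. At an unadjusted p under 0.05 the list had 11 higher (PCK1 included) and 1 lower, against 19.0% and 17.5% of all tested genes. NFKBIA, the inhibitor of NF-kB, rose by 0.61 (adjusted p = 0.022). PCK1, a gluconeogenic enzyme, passed as well (adjusted p = 0.0269), but its means of 3.89 on Nnm 24 h arrays and 3.08 on control 24 h arrays were both below the floor of 4, so no size is given. DUSP1 (1.05) and SCNN1A (0.75) also rose and are named after their values were seen.

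At 48 h the same list gave 8 rises and 2 falls, with a median of 0.23, against 8.45% called higher and 5.34% called lower among all tested genes. BCL6, DUSP1, NFKBIA, PCK1, PDK4, RGS2 and SCNN1A were called higher at both times, 7 of the 8 at 24 h and 7 of the 8 at 48 h. PCK1 had 5.27, 5.02 and 5.55 on Nnm 48 h arrays, against 2.97, 3.26 and 3.28 on control 48 h arrays, which lie below the floor. Against that floor it was at least 2.43-fold higher (adjusted p = 0.0012). It was the 1 gene of the 25 to enter the test through Nnm arrays alone, so its place among those that passed is no support. Without PCK1 the list had 7 rises of 24 at 24 h (median 0.26) and 7 rises and 2 falls at 48 h (median 0.20), with 6 rises shared by both times. RGS2 rose by 0.84 (SE 0.12, adjusted p = 0.00508) and NFKBIA by 0.89 (SE 0.15, adjusted p = 0.00813). TIPARP, a mono-ADP-ribosyltransferase, fell by 1.24 (SE 0.21, adjusted p = 0.00854). TFCP2L1 averaged 7.74 ± 0.15 on Nnm 48 h arrays and 7.24 ± 0.18 on control 48 h arrays, a change of 0.51 that did not pass (adjusted p = 0.133). IL1R2 (1.00) rose and GADD45A (-0.72) fell, both named after their values were seen. With the replicate block 9 of the 25 rose and 1 fell at 24 h, and 9 rose and 4 fell at 48 h. PCK1 was among those that rose each time. The block called 20.0% of all tested genes higher and 18.8% lower at 24 h, and 18.5% higher and 13.7% lower at 48 h.

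**Figure D5:**
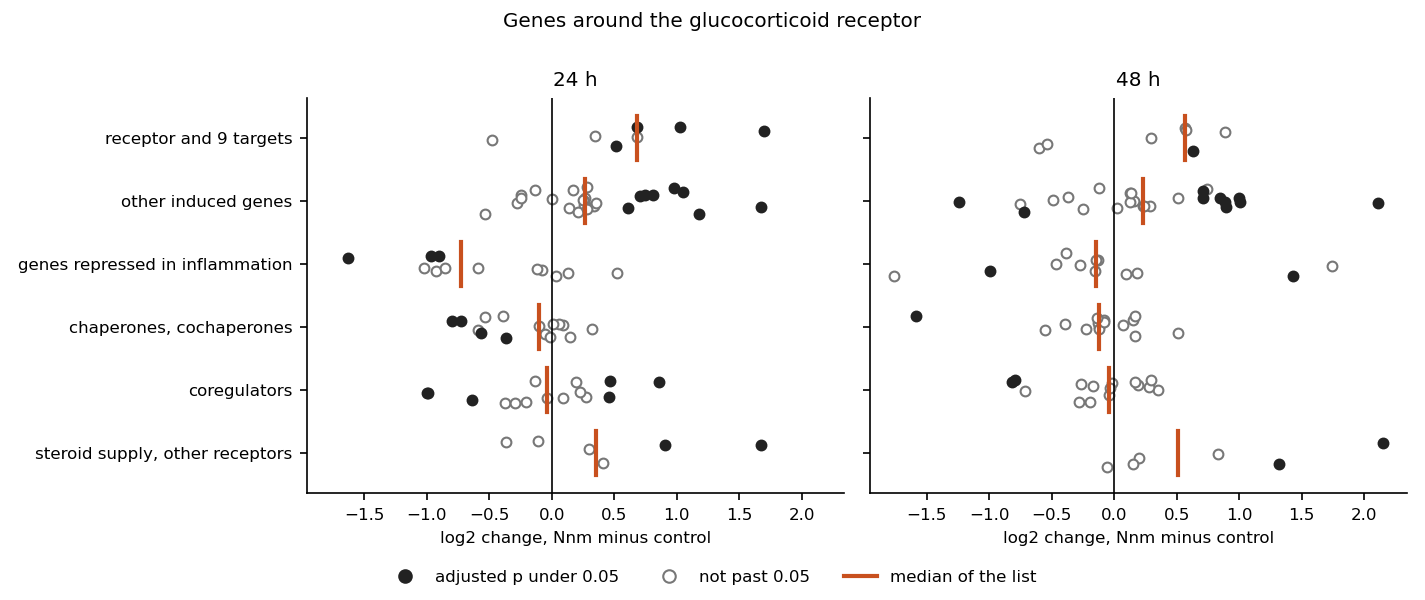
Log2 change, Nnm minus control (horizontal axis), of every tested gene of 6 lists at 24 h (left) and 48 h (right). Each point is a gene, filled where the adjusted p was under 0.05, and the orange line is the median of the list. Medians of the receptor and its targets are 0.68 and 0.56, and of the other induced genes 0.27 and 0.23. PCK1 is drawn at its fitted change, although its controls lay below 4.

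Of 12 tested inflammatory genes that the receptor is known to repress, 0 rose and 3 fell at 24 h, with a median of -0.72, where 10.6% of all tested genes were called higher and 8.85% lower. CXCL5, a chemokine for neutrophils, fell by 1.63 (SE 0.41, adjusted p = 0.0239), with 6.40, 6.54 and 7.68 on Nnm 24 h arrays, against 8.30, 8.16 and 9.03 on control 24 h arrays. CXCL8, another such chemokine, fell by 0.91 (SE 0.26, adjusted p = 0.0336). At an unadjusted p under 0.05 the counts were also 0 and 3, where 19.0% of all tested genes were higher and 17.5% lower. ICAM1, an adhesion molecule for leukocytes, fell by 0.97 (SE 0.22, adjusted p = 0.0164), though not with the mean of its 3 probe sets (-0.68, adjusted p = 0.0973). CXCL2 gave -0.59 (adjusted p = 0.272).

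At 48 h the inflammatory list gave 1 rise and 1 fall of 12, with a median of -0.15, which is near the 8.45% called higher and 5.34% called lower among all tested genes. ICAM1 fell by 1.00 (SE 0.22, adjusted p = 0.0175), again not with the mean of its probe sets (-0.63, adjusted p = 0.135). VCAM1, also an adhesion molecule, rose by 1.43 (SE 0.38, adjusted p = 0.0329), with 8.84, 8.70 and 9.16 on Nnm 48 h arrays, against 7.22, 7.60 and 7.59 on control 48 h arrays. CCL20, a chemokine for lymphocytes and dendritic cells, gave 1.74 (SE 0.58, adjusted p = 0.069), with Nnm replicate 3 at 8.59 and the other Nnm arrays at 5.89 and 5.97. CCL2, a chemokine for monocytes, gave -1.76 (adjusted p = 0.188), with Nnm replicate 1 at 3.74, below the floor of 4, which limits its size. With the replicate block CCL20 (adjusted p = 0.0341) and CCL2 (adjusted p = 0.0174) passed in opposite directions, so that 2 rose and 2 fell, against 18.5% and 13.7% of all tested genes in that fit. At 24 h the block gave 0 rises and 4 falls, against 20.0% and 18.8% of all tested genes in that fit.

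Of 15 chaperones and cochaperones of the receptor, 0 rose and 4 fell at 24 h (median -0.10), and 0 rose and 1 fell at 48 h (median -0.12). Among all tested genes 8.85% fell at 24 h and 5.34% at 48 h, so the 1 fall at 48 h is near that share. At an unadjusted p under 0.05 the list had 0 higher and 6 lower at 24 h, and 1 higher and 2 lower at 48 h, where 17.5% and 13.8% of all tested genes were lower. BAG1, which releases nucleotide from HSP70 and binds the receptor, fell by 0.80 at 24 h (SE 0.21, adjusted p = 0.0249) and fell by 1.59 at 48 h (SE 0.21, adjusted p = 0.00335). With the mean of the 3 BAG1 probe sets the call at 24 h was lost (-0.46, adjusted p = 0.117) and that at 48 h was kept (-1.09, adjusted p = 0.0103). It had 7.16, 7.76 and 6.75 on Nnm 48 h arrays, against 8.78, 8.80 and 8.85 on control 48 h arrays, with no overlap. STUB1, a ubiquitin ligase that works with HSP70 and HSP90, fell by 0.57 at 24 h (SE 0.12, adjusted p = 0.0125). CDC37, a kinase-specific partner of HSP90, fell by 0.73 (SE 0.20, adjusted p = 0.0278) and HSPA4, an HSP70 relative, fell by 0.36 (SE 0.09, adjusted p = 0.024). With the replicate block, which called 38.8% of all tested genes at 24 h and 32.2% at 48 h, 1 rose and 7 fell at 24 h, and 1 rose and 3 fell at 48 h. The 1 that rose was DNAJB1 at both times (0.32, adjusted p = 0.0255, and 0.51, adjusted p = 0.0064), and PPP5C fell at both times in that fit (-0.53, adjusted p = 0.0219, and -0.55, adjusted p = 0.0232).

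Of 15 coregulators, 3 rose and 3 fell at 24 h (median -0.04), and 0 rose and 2 fell at 48 h (median -0.04, with 0 higher and 4 lower at an unadjusted p under 0.05). Among all tested genes 10.6% rose and 8.85% fell at 24 h, and 8.45% rose and 5.34% fell at 48 h. At an unadjusted p under 0.05, 18.6% of them were higher and 13.8% lower at 48 h. NCOA1, a coactivator of steroid receptors, rose by 0.86 at 24 h (SE 0.18, adjusted p = 0.0122), and gave 0.35 at 48 h (adjusted p = 0.196). NCOA2 and CREBBP each rose by 0.46 at 24 h and are named after their values were seen. PRMT1, an arginine methyltransferase, fell by 1.00 at 24 h (SE 0.21, adjusted p = 0.0122) and fell by 0.82 at 48 h (SE 0.21, adjusted p = 0.0286). SMARCA4, the motor of SWI/SNF remodelling complexes, fell by 0.64 at 24 h (SE 0.17, adjusted p = 0.0276) and fell by 0.80 at 48 h (SE 0.17, adjusted p = 0.0161). PPARGC1A, a coactivator of mitochondrial genes, fell by 0.99 at 24 h (SE 0.26, adjusted p = 0.025). The histone deacetylase HDAC2 gave -0.29 (adjusted p = 0.0841, and 0.0422 with the replicate block) at 24 h and -0.28 (adjusted p = 0.107) at 48 h. With the block 4 coregulators rose and 4 fell at 24 h (20.0% and 18.8% of all tested genes), and 1 rose and 4 fell at 48 h (18.5% and 13.7%).

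Of 6 tested genes of steroid supply and related receptors, 2 rose and 0 fell at each time, with medians of 0.35 and 0.51, where 10.6% of all tested genes rose at 24 h and 8.45% at 48 h. With the replicate block 3 rose at each time (20.0% and 18.5% of all tested genes), SRD5A1 being added at 24 h (adjusted p = 0.0159) and AKR1C3 at 48 h (adjusted p = 0.00964). SERPINA6, which encodes the corticosteroid-binding globulin that carries cortisol, rose by 1.67 at 24 h (SE 0.23, adjusted p = 0.00496) and by 2.15 at 48 h (SE 0.23, adjusted p = 0.00132). It had 8.85, 9.20 and 9.28 on Nnm 48 h arrays, against 6.93, 7.24 and 6.72 on control 48 h arrays. Both calls held without any 1 array. AKR1C3, a reductase of steroids, rose by 0.91 at 24 h (SE 0.26, adjusted p = 0.0376), and SRD5A1, steroid 5-alpha reductase, by 1.32 at 48 h (SE 0.20, adjusted p = 0.00561). NR3C2, the mineralocorticoid receptor, gave 0.30 (SE 0.24, adjusted p = 0.396) at 24 h and 0.15 (SE 0.24, adjusted p = 0.717) at 48 h.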

How the data were processed

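Total RNA from 12 cultures of HK-2 cells (4 groups of 3) was hybridised to 12 Affymetrix arrays of 54675 probe sets. The authors deposited log2 expression values from GCRMA, per the submitters' processing notes. The sources used here give neither its version nor the set of arrays normalised together, and the range of values served to infer the log base. GCRMA subtracts background by probe sequence, so that dim probe sets collapse to values near 2 to 3.

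There were 62 control probe sets, while 41091 had 1 gene symbol in the platform's annotation, 1801 had several and 11721 had no entry. For 41037 the gene ID was in RefSeq's table of GRCh38.p14, which changed 0 symbols. A probe set was kept (19832 with 1 symbol) where at least 3 arrays exceeded a log2 of 4, and each gene was taken from its brightest kept probe set, which gave 10907 genes. All 7 tested members were above 4 on all 12 arrays. Probe sets with several symbols were fitted apart.

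The test was limma's (version 3.58.1, R 4.3.3), with lmFit and eBayes on the 12 arrays together, Benjamini-Hochberg adjustment and a threshold of 0.05, and SEs are from the spread pooled over the groups. With group means removed, arrays correlated at 0.34 to 0.512 where replicate number and time were the same, at 0.318 to 0.696 where the number was, and, with different numbers, at -0.587 to 0.119, so the numbers pair the arrays. The planned test has no block, and blocked values stand beside results whose call they change. The fit was also run on simulated arrays with independent noise. Those lack the pairing by replicate number, so that run does not check the fit on paired arrays. Figures were drawn with matplotlib 3.10.9 in Python 3.11.15.

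The members, lists and comparisons were chosen with earlier results of these data known. Named genes are all members, up to 4 of each list with the smallest p at each time, and the 5 most correlated with TSC22D3 and with NR3C1. Upstream sequence is shown for members called in the same direction at both times, since fewer than 2 members held the relaxed receptor element. The other motifs were chosen after the data were seen. Sequences are RefSeq's. Alternatives were filters at no floor and at 6, gene means over probe sets, every probe set, quantile normalisation, median centring, a replicate block (over all arrays, or separately by time), trend and robust settings, array weights, fits of only the groups compared, every single array omitted in turn, and both Nnm arrays of replicate 2 omitted.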

Additional observations from a re-analysis of the deposited data

Results flagged for a closer look

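PER1, a repressor of the circadian clock that glucocorticoids induce, shares all 4 of its probe sets with the annotation of MIR6883, and 2 of them were bright enough to keep. These lay outside the comparisons above. Probe set 202861_at had 7.57, 6.92 and 7.37 on Nnm 24 h arrays, against 6.91, 6.78 and 6.60 on control 24 h arrays. It was noticed because all Nnm arrays lay above all control arrays in data that the report did not use. The difference was 0.52 (SE 0.24) and did not pass (adjusted p = 0.162 over 952 shared probe sets). At 48 h the same probe set had 7.04, 6.26 and 7.16 on Nnm arrays, against 6.43, 6.23 and 6.11 on control arrays, where the groups overlapped (0.57, SE 0.24, adjusted p = 0.156). Probe set 36829_at gave 0.24 at 24 h (adjusted p = 0.254) and 0.15 at 48 h (adjusted p = 0.515). Which of the 2 annotated genes a probe set measured was not tested.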

How the results depend on the processing

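Of the 7 tested members, 4 were called at 24 h. The number was 1 with no filter, 2 with only the groups compared, and 1 to 4 on leaving out 1 array. With the mean of probe sets, every probe set tested or median centring, 1 call was lost. Array weights lost 1 call (FKBP5) and added 2 (SGK1 and ERRFI1), as did leaving out both Nnm replicate 2 arrays. At 48 h 1 was called, and 4 with the replicate block, 3 with the block within each time, 5 with array weights, 5 without both Nnm replicate 2 arrays and 0 to 5 on leaving out 1 array. Between control times 0 were called and 1 with the replicate block, and between Nnm times 0 were called and 1 without both Nnm replicate 2 arrays. For the difference between times it was 0 in every setting run. The replicate block changed no other call printed above. Of the list genes that passed, TFCP2L1, BCL6, RGS2, PDK4 and SERPINA6 at 24 h and NFKBIA, PCK1, RGS2, TIPARP, BAG1, SERPINA6 and SRD5A1 at 48 h passed without any 1 array. Each of the others lost its call without at least 1 (adjusted p up to 0.125 and 0.153). PCK1 entered the test through Nnm arrays alone, so its passing without any 1 array is no support. Over all genes, the calls were 2116 at 24 h (1272 with no filter, 837 with only the groups compared, 4237 with the replicate block) and 1504 at 48 h (879, 514 and 3515). They also grew with the block within each time (3328 at 24 h and 2513 at 48 h) and with array weights (4864 and 3468). Without both Nnm replicate 2 arrays they were 3703 and 3156.

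Array weights turned the sign of CCL20 at 24 h (0.18), CXCL2 at 48 h (0.12), SGK1 for the difference between times (0.072) and between Nnm times (0.074), and FKBP5 between control times (-0.020, and -0.051 with the mean of probe sets). Without both Nnm replicate 2 arrays the difference between times of ERRFI1 was 0.027. None of these passed in any setting named, and the cause was not tested. On leaving out 1 array, the changes crossed 0 in CCL20 (-0.24 to 0.17) and H6PD (-0.31 to 0.10) at 24 h and CXCL5 at 48 h (-0.68 to 0.10). So did the difference between times in ERRFI1 (-0.42 to 0.34), NR3C1 (-0.30 to 0.011) and SGK1 (-0.44 to 0.22), and the difference between control times in FKBP5 (-0.14 to 0.13) and SGK1 (-0.040 to 0.11). Between Nnm times it was ERRFI1 (-0.68 to 0.087), NR3C1 (-0.052 to 0.25), SGK1 (-0.41 to 0.25) and TSC22D3 (-0.10 to 0.47). The block within each time was not run for comparisons of times, nor the groups compared alone for the difference between times. Dim probe sets near 4 limit KLF9 and PCK1, and values not above 4 on some arrays limit CCL2 and other genes of the inflammatory list.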
